A study of Mus musculus with 8 samples.

Results

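The lung senses house dust mite in part through C-type lectin receptors, and the RNA of 10 genes of this system was followed here in mice that did or did not carry a DDAH1 transgene. The genes are Clec7a (dectin-1), Clec4n (dectin-2), Clec4e (Mincle), Clec4d (MCL), Clec5a, Clec4a2, Mrc1, Cd209a, Clec10a and Fcer1g, the adaptor that several of the receptors need. They are a list of named genes, drawn up with earlier results of these data known, and were found by Entrez identifier among the 23469 genes of the count table. Each of the 10 passed the low-count filter in each comparison. C57BL/6 wild type mice and DDAH1-transgenic mice were given either PBS or house dust mite extract (HDM) into the trachea, in 3 doses a week over 3 weeks (the extract as 100 µg in 50 µl), and lungs were taken after airway measurements made 24 h after the last dose. DDAH1 is an enzyme that breaks down ADMA, a natural inhibitor of nitric oxide synthases. The 4 groups are wild type with PBS (WP), DDAH1-transgenic with PBS (TP), wild type with HDM (WH) and DDAH1-transgenic with HDM (TH). The age of the mice and the promoter that drives the transgene are not given in the sources used here.

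In each group RNA of 4 mice was mixed and the pool was sequenced as 2 libraries, so that every SD, standard error (SE) and p-value below covers the spread between 2 libraries of 1 pool and no spread between mice. Library totals ran from 5694928 counts, in TH replicate 1, to 11929374, and a chi-square of 13.5 to 29.5 per gene between the libraries of 1 pool placed each pair further apart than counting error does. Levels are CPM, the counts of a gene relative to the library total, on a common scale of edgeR's TMM method over the 8 libraries, on which 3 counts correspond to 0.232 to 0.449 CPM. Ddah1, the mouse gene of the enzyme, had 475 and 420 counts in WP, 771 and 509 in TP, 482 and 445 in WH and 233 and 431 in TH. Between TP and WP the log2 difference was 0.66 (adjusted p = 0.358 in edgeR's test), and between TH and WH it was -0.32 (adjusted p = 0.637). The libraries labelled DDAH1-transgenic with HDM thus did not hold more reads counted as Ddah1 than those labelled wild type with HDM. The sequence of the transgene is not given in the sources used here. Whether its reads would be counted as Ddah1 is therefore not known, and these counts do not show whether the transgene was expressed. The names TP and TH below stand for the libraries so labelled. Xist, the RNA of the inactive X chromosome, had 113 to 197 counts in the PBS libraries and 20303 to 31372 in the HDM libraries, while the Y-linked gene Ddx3y had 621 to 719 and 2 to 3 counts, and HDM treatment therefore cannot be told apart from the sex of the mice in any comparison of HDM with PBS. All 11 markers of lung epithelium and endothelium were detected in each group. Skeletal muscle markers summed to 42.3 to 45.4 CPM in WP and to 155 to 293 CPM in the other groups, and thymocyte markers to 151 to 158 CPM in WP and to 46.5 to 93.5 CPM elsewhere.

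C-type lectin receptors bind sugars and lipids on microbes, fungi, mites and dying cells. Dectin-1 carries its own signalling motif in its cytoplasmic tail, whereas dectin-2, Mincle and MCL signal through the immunoreceptor motif of Fcer1g, a small adaptor that is also a subunit of the IgE receptor and of Fc gamma receptors. These motifs recruit the kinase Syk, which works through Card9, Bcl10 and Malt1 to switch on cytokine genes. Dectin-2 is the receptor best known for mite extracts, whose glycans cause myeloid cells to release cysteinyl leukotrienes through it. Clec5a pairs with another adaptor, Tyrobp, and Clec4a2 carries an inhibitory motif that recruits the phosphatase Ptpn6. Mrc1, Cd209a and Clec10a are endocytic lectins for mannose, fucose or galactose sugars on macrophages and dendritic cells, and Mrc1 can take up mannosylated mite allergens.

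Of the 10 genes, 6 lie on chromosome 6 of GRCm38 (mm10). Clec4n (123229843 to 123247024), Clec4d (123262107 to 123275268) and Clec4e (123281789 to 123289871) are neighbours, with 15082 bases between Clec4n and Clec4d and 6520 bases between Clec4d and Clec4e. Clec4e lies on the minus strand and the other 2 on the plus strand. Clec4a2 (123122690 to 123143999) lies 85843 bases before Clec4n, Clec7a is at 129461591 to 129472785 and Clec5a at 40574898 to 40585805. The others are on chromosome 8 (Cd209a, 3743395 to 3748984), chromosome 11 (Clec10a, 70166623 to 70170836), chromosome 2 (Mrc1, 14229414 to 14332023) and chromosome 1 (Fcer1g, 171229572 to 171234349). In the annotation the neighbours in the cluster do not overlap. Of the stretches of 50 bases in its transcript, Clec10a shared 9.02% with other genes, first of all Mgl2, and Clec4a2 shared 6.69%, so that part of their reads may be ambiguous. For Clec4n the share was 0.686%, and for the other 7 genes it was 0.

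Windows from 250 bases before to 50 bases after the transcription start were read from the RefSeq promoter set of GRCm38.p6 for 8 of the 10 genes. Those of Clec4e and Clec4d are shown because these neighbours differed most between the PBS-treated groups, that of Clec7a because it is the most abundant of the receptors per length, and that of Mrc1 because, of the 10 genes, it alone lay higher in both TP libraries than in both WP libraries. Capitals mark matches, on either strand, to GAGGAA (a core like that of the myeloid factor PU.1), TGANTCA (AP-1) or TTNCNNAA (like C/EBP). The windows are Clec4e at chr6:123289822-123290121, minus strand, Clec4d at chr6:123261857-123262156, plus strand, Clec7a at chr6:129472730-129473029, minus strand and Mrc1 at chr2:14229164-14229463, plus strand, each written 5′ to 3′ in the direction of the gene.
Clec4e: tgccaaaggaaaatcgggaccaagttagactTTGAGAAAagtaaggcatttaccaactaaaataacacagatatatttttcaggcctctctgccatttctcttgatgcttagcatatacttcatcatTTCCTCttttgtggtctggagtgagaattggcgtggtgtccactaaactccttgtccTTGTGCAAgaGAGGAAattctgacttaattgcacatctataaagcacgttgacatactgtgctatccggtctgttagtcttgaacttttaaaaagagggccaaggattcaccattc
Clec4d: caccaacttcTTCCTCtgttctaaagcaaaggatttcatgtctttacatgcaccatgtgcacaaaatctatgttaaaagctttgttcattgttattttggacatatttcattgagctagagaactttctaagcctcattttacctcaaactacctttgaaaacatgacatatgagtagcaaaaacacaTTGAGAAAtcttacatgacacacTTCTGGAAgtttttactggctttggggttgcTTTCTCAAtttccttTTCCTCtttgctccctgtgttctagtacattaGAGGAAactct
Clec7a: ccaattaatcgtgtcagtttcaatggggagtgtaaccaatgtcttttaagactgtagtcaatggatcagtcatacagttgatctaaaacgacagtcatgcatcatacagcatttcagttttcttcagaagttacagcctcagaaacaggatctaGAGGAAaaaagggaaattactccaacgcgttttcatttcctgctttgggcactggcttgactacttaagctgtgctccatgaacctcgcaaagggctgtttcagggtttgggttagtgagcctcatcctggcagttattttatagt
Mrc1: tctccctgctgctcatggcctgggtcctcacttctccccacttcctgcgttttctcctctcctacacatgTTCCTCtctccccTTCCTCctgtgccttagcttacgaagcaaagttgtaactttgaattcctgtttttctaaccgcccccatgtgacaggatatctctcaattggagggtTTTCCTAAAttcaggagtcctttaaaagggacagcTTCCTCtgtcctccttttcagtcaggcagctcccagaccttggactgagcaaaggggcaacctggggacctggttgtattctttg
The Clec4e window held 2 matches to the PU.1-like core and 2 to the C/EBP-like motif, and the Clec4d window held 3 of each. Clec7a had 1 PU.1-like match and none of the other kinds, and Mrc1 had 3 PU.1-like matches and 2 overlapping C/EBP-like matches. Over the 8 genes, 5 first windows held the PU.1-like core, 6 the C/EBP-like motif and 1 the AP-1 motif, that of Clec4a2. Among all 32851 promoters of the set, 28.3%, 40.7% and 7.81% held them.

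The 3 receptors that signal through Fcer1g are given first. Clec4e, which recognizes glycolipids and damaged cells, had 41.1 and 36.7 CPM in WP, 0.898 and 1.9 in TP, 6.34 and 3.11 in WH and 12.9 and 21 in TH. It was therefore highest in the libraries of PBS-treated wild type mice and lowest in those of PBS-treated transgenic mice, with no overlap between any of the groups. In reads, the TP values rest on 9 and 18 counts and the WP values on 409 and 450. Clec4d, the partner of Clec4e in a shared receptor complex, had 11.3 and 14.9 CPM in WP, 1.4 and 2.01 in TP, 6.7 and 3.72 in WH and 23.8 and 16.1 in TH. The TP libraries were again the lowest, but here the TH libraries were above all others. Clec4n had 6.53 and 9.96 CPM in WP, 1.7 and 2.32 in TP, 21.5 and 10.6 in WH and 46 and 35.2 in TH. Its order was TP, WP, WH and TH, without overlap.

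Clec7a, the receptor for fungal beta-glucan, had 44.4 and 42 CPM in WP, 22.4 and 19.7 in TP, 178 and 176 in WH and 236 and 222 in TH. The 2 libraries of each group lay close together, and the order of the groups was that of Clec4n. For Clec5a, the Tyrobp-coupled receptor, the values were 4.42 and 3.67 CPM in WP, 0.998 and 0.951 in TP, 17.5 and 34.1 in WH and 12.4 and 15.3 in TH. Both HDM groups lay above both PBS groups, and the WH libraries differed by more from each other than any other pair. Fcer1g itself had 101 and 137 CPM in WP, 49.7 and 84.3 in TP, 228 and 215 in WH and 173 and 186 in TH. It kept the order TP, WP, TH and WH, so that its level was lower in TH than in WH while those of its partner receptors were higher.

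Of the remaining receptors, the inhibitory Clec4a2 had 9.95 and 11.3 CPM in WP, 6.59 and 5.71 in TP, 29.7 and 27.9 in WH and 24.7 and 40.5 in TH. The HDM groups overlapped each other and lay above the PBS groups. Mrc1 had 60 and 73.8 CPM in WP, 88.6 and 109 in TP, 250 and 192 in WH and 242 and 152 in TH, and was the only one of the 10 genes with no overlap between TP and WP that was higher in TP. Cd209a, a lectin of dendritic cells, had 4.42 and 8.73 CPM in WP, 5.99 and 4.97 in TP, 3.75 and 6.73 in WH and 13.8 and 17.3 in TH, so that the first 3 groups overlapped and TH lay above them. Clec10a was too uneven to order the groups. Its values were 3.42 and 1.71 CPM in WP, 0.599 and 5.07 in TP, 5.09 and 4.12 in WH and 7.34 and 2.17 in TH, on 6 to 57 counts a library.

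**Figure D1:**
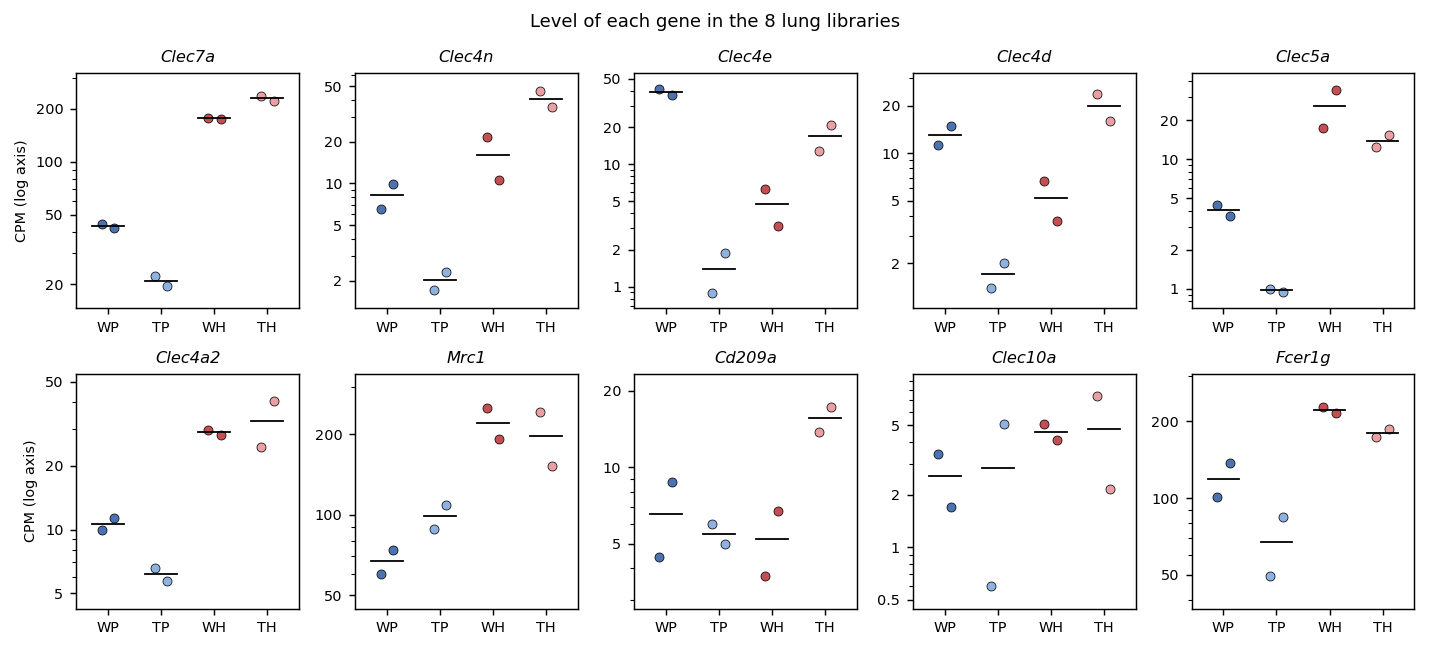
CPM (TMM scale, log axis) of each of the 10 genes in the 8 libraries; points are libraries, the line is the mean of the 2 libraries of a group, and WP, TP, WH and TH are the wild type and DDAH1-transgenic groups with PBS or HDM. Clec4e falls from a mean of 38.9 CPM in WP to 1.4 in TP, and Clec4n and Clec7a are highest in TH.

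Levels were compared between genes as CPM per kilobase of coding sequence, the region that the paper describes as counted. On this scale Fcer1g stood first in each group, from 260 ± 94.9 in TP to 858 ± 36 in WH (SD, n = 2 libraries), and Clec7a was next, from 35.2 ± 3.2 in TP to 384 ± 16.7 in TH. In WP, Clec4e was the third with 60.6 ± 4.8, above Clec4d with 19.9 ± 3.88, and the ranges of Mrc1, Clec4a2, Clec4n and Cd209a, which followed, each overlapped that of the next. Clec5a, with 7.1 ± 0.927, lay within the range of Cd209a, and Clec10a came last with 2.81 ± 1.32. In TP, Clec4e was the ninth, with 2.18 ± 1.11, and its range overlapped those of Clec4n, Clec10a, Clec4d and Clec5a, while Mrc1 was the third with 22.6 ± 3.25. In WH the next places went to Mrc1 (50.6 ± 9.26), Clec5a (45.3 ± 20.6) and Clec4a2 (40.3 ± 1.73), and the range of Clec5a overlapped both of the others. In TH, Clec4n was the third, with 64.8 ± 12.1, and its range overlapped that of Clec4a2 with 45.7 ± 15.6. Per kilobase of transcript rather than of coding sequence, Clec7a stood above Fcer1g in TH, with 324 against 266, and Clec4e was the tenth in both WH and TP. Mrc1 took the third place in TH on that scale, above Clec4n, with 36.6 against 33. The non-coding RNAs Xist and Rn45s also hold counts, so that not only coding sequence was counted. Ranks that differ between the 2 scales are therefore not settled.

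The first comparison asked how the lungs of DDAH1-transgenic mice differed from those of wild type mice without allergen. Clec4e fell 27.9-fold, from 38.9 ± 3.08 to 1.4 ± 0.71 CPM (SD, n = 2 libraries). On the log2 scale this was -4.80 ± 0.45 (± SE here and below), with an adjusted p of 4.99e-06 in the quasi-likelihood test of edgeR after Benjamini-Hochberg correction across the genes tested. Clec4d fell 7.69-fold, or -2.94 ± 0.60 on that scale (adjusted p = 0.0236). These 2 of the 10 genes passed the threshold of 0.05, both lower in TP, against 0.375% of all 14926 genes tested that passed it as lower and 0.657% in either direction. Another 5 had an unadjusted p under 0.05 only, so that 7 of the 10 did, against 9.98% of all genes. They were Clec4n with -2.04 (SE 0.67, adjusted p = 0.240), Clec5a with -2.05 (SE 0.88, adjusted p = 0.441), Clec7a with -1.05 (SE 0.28, adjusted p = 0.120), Fcer1g with -0.84 (SE 0.23, adjusted p = 0.130) and Mrc1, the one positive value among them, with 0.55 (SE 0.20, adjusted p = 0.309). Among the 10 genes 7 were lower and 1 was higher in TP without overlap between the groups, a state found for 40.3% of all genes in either direction. The remaining log2 fold changes were -0.80 for Clec4a2, -0.28 for Cd209a (0.29 without WP replicate 2) and 0.13 for Clec10a, whose sign changed in 4 alternatives. The median of the 10 log2 fold changes was -0.94, against 0.001 over all genes.

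The call of Clec4e held in each alternative tried, and its log2 fold change was -5.42 without TP replicate 2. That of Clec4d was lost without WP replicate 1 (-3.12) and without WP replicate 2 (-2.73). With DESeq2, Clec7a passed as well, and Fcer1g passed without TP replicate 2, at -1.25. Markers of neutrophils moved with these genes. Of the 14 in the table, 5 were lower in TP and none was higher, S100a9 by 3.77 (from 63 and 68.7 to 6.29 and 3.38 CPM) and S100a8 by 2.28 on the log2 scale (2.87 without TP replicate 1), and the list summed to 744 to 767 CPM in WP and to 322 to 389 CPM in TP, with Camp at 0 in TP. The leukocyte gene Ptprc was also lower, by 0.74 on the log2 scale (adjusted p = 0.0259), and lost its call without WP replicate 1 (-0.60). In lung RNA, fewer cells of a type cannot be told apart from less RNA per cell, and the part of these cells in the result was not tested. None of the 14 markers of monocytes and macrophages passed the threshold between TP and WP by edgeR, where 0.657% of all genes did, or by DESeq2. An unadjusted p under 0.05 was found for 3 of them, against 9.98% of all genes. Of the log2 values of the 14 markers 11 were negative and 3 positive, with a median of -0.62 against 0.001 over all genes.

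The second comparison set DDAH1-transgenic against wild type mice after HDM. None of the 10 genes passed the threshold in edgeR's quasi-likelihood test on the HDM libraries alone, where 2.44% of 15191 genes did. The log2 values were 1.97 ± 0.52 for Clec4d (adjusted p = 0.0773), 1.87 ± 0.56 for Clec4e (adjusted p = 0.115), 1.37 ± 0.40 for Clec4n (adjusted p = 0.107) and 1.61 ± 0.54 for Cd209a (adjusted p = 0.155). These were the 4 genes of the 10 with an unadjusted p under 0.05, against 16.2% of all genes. The groups did not overlap for 7 of the 10 genes, and for 48.2% of all genes. In the edgeR fit of all 8 libraries Clec4d and Clec4e passed, and without the low-count filter Clec4d, Clec4e and Clec4n did, each higher in TH. With DESeq2, 3 passed, namely Clec4d, Clec4e and Clec4n, each higher in TH, and Clec4d and Clec4n also passed without TH replicate 2, at 2.24 and 1.56. Clec4e also passed without TH replicate 1, at 2.16. The other values, with adjusted p-values from 0.308 to 0.979, were 0.41 for Clec7a (SE 0.19), 0.22 for Clec4a2, 0.07 for Clec10a, -0.13 for Mrc1, -0.26 for Fcer1g and -0.86 for Clec5a (SE 0.43). Clec7a turned to -0.21 with an offset for gene length, Mrc1 to 0.03 with the offset, 0.06 without WH replicate 1 and 0.18 without TH replicate 2, and Clec4a2 to -0.17 without TH replicate 2. Clec10a changed sign in 5 alternatives. None of the 12 neutrophil markers that could be tested passed by edgeR or DESeq2, although 3 had an unadjusted p under 0.05, and the list summed to 1150 to 1326 CPM in WH and to 860 to 1166 CPM in TH, of which Lcn2 made up 982 and 721 CPM on average.

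**Figure D2:**
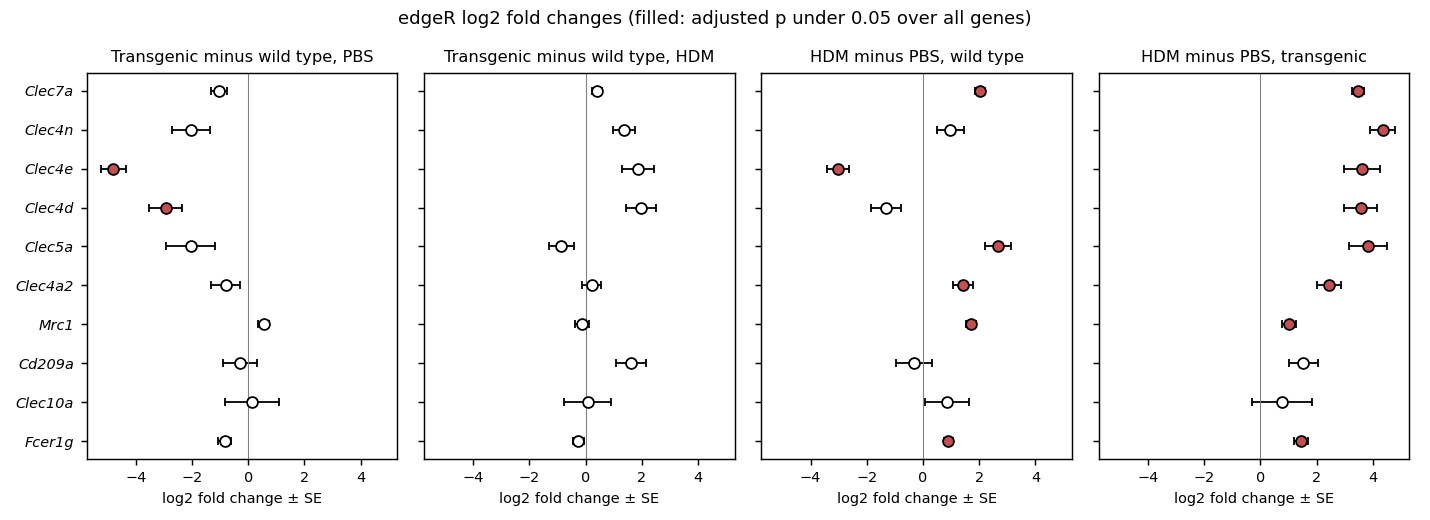
Log2 fold change (x axis, points with SE bars) of the 10 genes in each of the 4 comparisons; filled points have an adjusted p under 0.05 over all genes tested. Clec4e lies at -4.80 between the PBS-treated groups and at 3.61 for HDM against PBS in transgenic mice, and no point is filled between the HDM-treated groups.

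In wild type mice HDM treatment went with rises of 4 receptors and of Fcer1g and with a fall of Clec4e. Clec5a rose 6.37-fold (log2 fold change 2.67, SE 0.46, adjusted p = 0.00251), Clec7a 4.1-fold (2.03, SE 0.17, adjusted p = 3.72e-06), Mrc1 3.3-fold (1.72, SE 0.18, adjusted p = 3.26e-05) and Clec4a2 2.7-fold (1.43, SE 0.35, adjusted p = 0.0232). Fcer1g rose 1.86-fold (0.90, SE 0.17, adjusted p = 0.00499). Clec4e fell 8.18-fold (-3.03, SE 0.40, adjusted p = 2.98e-04), and fell by 3.64 on the log2 scale without WH replicate 1. Altogether 5 of the 10 genes rose and 1 fell, against 4.44% and 2.3% of 15123 genes. The groups did not overlap for 9 of the 10 genes, and for 49.8% of all genes. The values of Clec4n (0.96, adjusted p = 0.285), Clec10a (0.85), Cd209a (-0.33) and Clec4d (-1.32, adjusted p = 0.164) did not pass, although that of Clec4d did without WH replicate 1 (-1.81). Cd209a turned to 0.23 without WP replicate 2 and to 0.03 without WH replicate 1. The call of Clec4a2 was lost without WP replicate 1 (1.34) or WP replicate 2 (1.52). Of the 14 neutrophil markers 4 fell, among them S100a8 and S100a9 by 2.14 and 2.38 on the log2 scale (by 3.00 for S100a9 without WH replicate 1). Lcn2 rose, from 253 to 982 CPM, and with it the sum of the list, from 744 to 767 CPM in WP to 1150 to 1326 CPM in WH. In the same comparison 7 of 14 markers of monocytes and macrophages rose and 1 fell, and 6 of 8 general leukocyte genes rose. Summed leukocyte genes were at 1049 to 1063 CPM in WP and 1928 to 1937 CPM in WH, and their part in these changes was not tested. HDM cannot be told apart from sex here.

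In DDAH1-transgenic mice 8 of the 10 genes rose between PBS and HDM, where 8.43% of 15086 genes rose and 5.35% fell. Clec4n rose most, 20.4-fold, from 2.01 ± 0.444 to 40.6 ± 7.6 CPM (SD, n = 2 libraries), which is 4.35 ± 0.45 on the log2 scale (adjusted p = 9.80e-05). Clec5a rose 14.2-fold (3.83, SE 0.68), Clec4e 12.2-fold (3.61, SE 0.65), Clec4d 11.9-fold (3.57, SE 0.58) and Clec7a 11.1-fold (3.47, SE 0.23), with adjusted p-values from 3.62e-06 for Clec7a to 0.00372 for Clec4e. Smaller rises were seen for Clec4a2, Fcer1g and Mrc1, of 2.43, 1.44 and 1.02 on the log2 scale with adjusted p-values of 0.0033, 0.00396 and 0.0212. Cd209a, at 1.53 (adjusted p = 0.0700), and Clec10a, at 0.76 (adjusted p = 0.703), did not pass. An unadjusted p under 0.05 was found for 9 of the 10 genes and 27.7% of all genes, and 9 of the 10 lay higher in TH without overlap, as did 28.8% of all genes, while 28% lay lower. The median over the 10 genes was 2.95, against 0.031 over all genes. Clec10a turned negative without TP replicate 1 (-0.09) or TH replicate 1 (-0.38).

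Several of these calls depended on single libraries or on gene length. Without TP replicate 1 the count of genes called among the 10 was 4 and without TP replicate 2 it was 5, while that over all genes went from 2079 to 404 and 277. Without TP replicate 1 the calls of Clec4e (3.16), Clec4a2 (2.52), Fcer1g (1.10) and Mrc1 (0.87) were lost, and without TP replicate 2 those of Clec5a (3.80), Clec4a2 (2.32) and Mrc1 (1.18). Clec4e was at 4.24 without TP replicate 2, and Mrc1 lost its call without TH replicate 1 (0.63). With an offset for gene length Fcer1g, the gene with the shortest transcript of the 10 at 674 bases, was at 0.42 and no longer passed. Clec4n, Clec5a and Clec7a were at 3.72, 2.94 and 2.48 and still passed. All 8 general leukocyte genes and 12 of 14 markers of monocytes and macrophages rose as well. Of 11 neutrophil markers tested 2 rose, Lcn2 and S100a9, and 0 fell, with 4 of the 11 values negative. S100a9 was at 2.66, and at 1.49 with the length offset, where it no longer passed. Leukocyte genes summed to 724 to 750 CPM in TP and to 1945 to 2125 CPM in TH. The part of these cells in the rises was not tested.

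Whether the genotype difference itself depended on the treatment was tested as the difference between TH and WH minus that between TP and WP, in 1 fit of all 8 libraries. For Clec4e it was 6.63 on the log2 scale (SE 0.73, adjusted p = 2.84e-05), for Clec4d 4.86 (SE 0.77, adjusted p = 0.00193), for Clec4n 3.37 (SE 0.65, adjusted p = 0.00865) and for Clec7a 1.41 (SE 0.26, adjusted p = 0.00679). These 4 of the 10 genes passed, all in the same direction, against 1.05% of 15868 genes in that direction and 1.76% in either, and 6 had an unadjusted p under 0.05, against 14.7% of all genes. The other values were 1.84 for Cd209a (SE 0.80), 1.14 for Clec5a (SE 0.73), 0.98 for Clec4a2 (SE 0.54), 0.52 for Fcer1g (SE 0.32), -0.12 for Clec10a and -0.73 for Mrc1 (SE 0.32), with adjusted p-values between 0.292 and 0.981. By sign, 6 of the 10 genes were lower in TP than in WP and higher in TH than in WH, as were 24.6% of 14514 genes. Among these 6, Clec7a and Clec4a2 changed sign between TH and WH in alternative fits, and Cd209a between TP and WP. Mrc1 showed the opposite, Fcer1g and Clec5a were lower after both treatments and Clec10a higher after both. The signs of Mrc1 between TH and WH and of Clec10a in both comparisons also changed in alternative fits.

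Clec4e, Clec4d and Clec4n passed in each alternative. The offset for gene length used transcript length, although the paper describes counts over coding regions. Since the non-coding RNAs Xist and Rn45s also hold counts, it is not settled which bases were counted. For Clec4e the transcript has 2518 bases and the coding sequence 642, and for Clec7a they have 707 and 597. An offset by coding length was not tried. Clec4e was at 7.23 without WH replicate 1 and at 7.26 without TP replicate 2, and Clec4n was at 3.96 without WH replicate 1. The call of Clec7a was lost with the offset for gene length (0.77) and without TP replicate 2 (1.32). With the offset, Fcer1g turned to -0.17. Of the 14 neutrophil markers 2 passed, S100a9 and S100a8, in the same direction, at 5.02 and 3.48 (4.22 and 2.70 with the length offset), as did the macrophage marker Adgre1 at 1.91 and the leukocyte gene Ptprc at 1.16, and their part in the result was not tested. S100a8 was at 4.08 without TP replicate 1, S100a9 was at 5.64 without WH replicate 1 and at 4.43 without TH replicate 2, and the calls of Adgre1 and Ptprc were lost without 6 and 2 of the 8 libraries in turn. Since the mice given HDM and those given PBS also differed in sex, dependence on HDM and dependence on sex cannot be told apart.

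**Figure D3:**
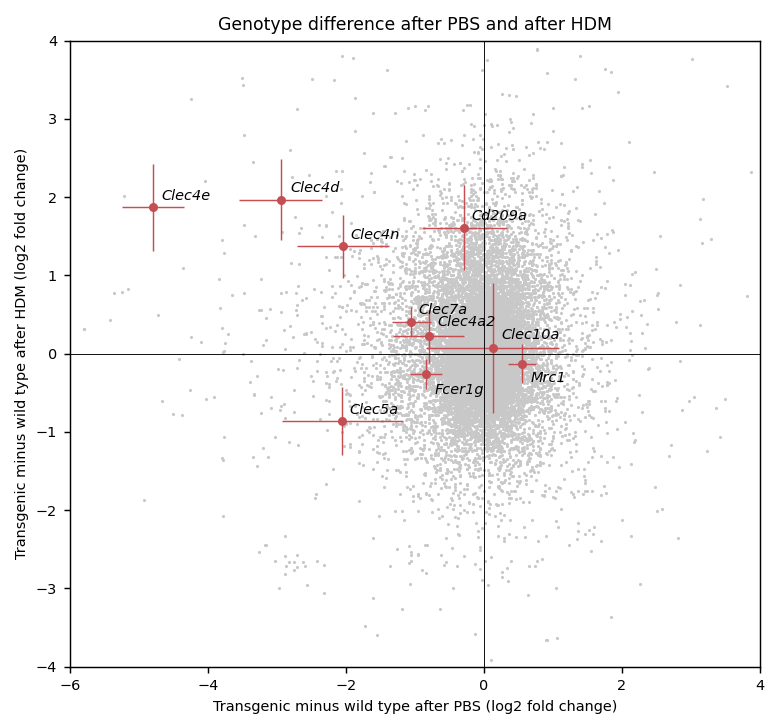
Log2 fold change of transgenic against wild type mice after PBS (x axis) and after HDM (y axis); grey points are all genes tested in both, red points are the 10 genes with SE bars. Clec4e, Clec4d and Clec4n lie at the upper left, at -4.80 and 1.87, -2.94 and 1.97, and -2.04 and 1.37.

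Counts of the Fcer1g-coupled receptors were also set against the Fcer1g counts of the same library, a measure that does not depend on library size. Clec4e amounted to 40.9% and 26.9% of the Fcer1g counts in WP, 1.81% and 2.26% in TP, 2.78% and 1.45% in WH and 7.44% and 11.3% in TH. The wild type PBS libraries were thus far above all others, and the remaining PBS and WH libraries overlapped. Clec4d amounted to 11.2% and 10.9% in WP, 2.81% and 2.38% in TP, 2.94% and 1.73% in WH and 13.8% and 8.67% in TH, with WP and TH overlapping at the high level. Clec4n lay between 2.76% and 9.45% in WP, TP and WH and at 26.6% and 19% in TH. Clec7a, which does not need Fcer1g, was at 23.3% to 45% in the PBS libraries of both genotypes, which overlapped, at 78.1% and 82.1% in WH and at 137% and 120% in TH. The ratios are given as a description, with no test. They are not corrected for gene length, so that they do not compare levels between genes. The rise of Fcer1g from TP to TH was smaller with the offset for gene length. Differences of a ratio between groups may therefore also hold an effect of gene length, which was not tested.

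**Figure D4:**
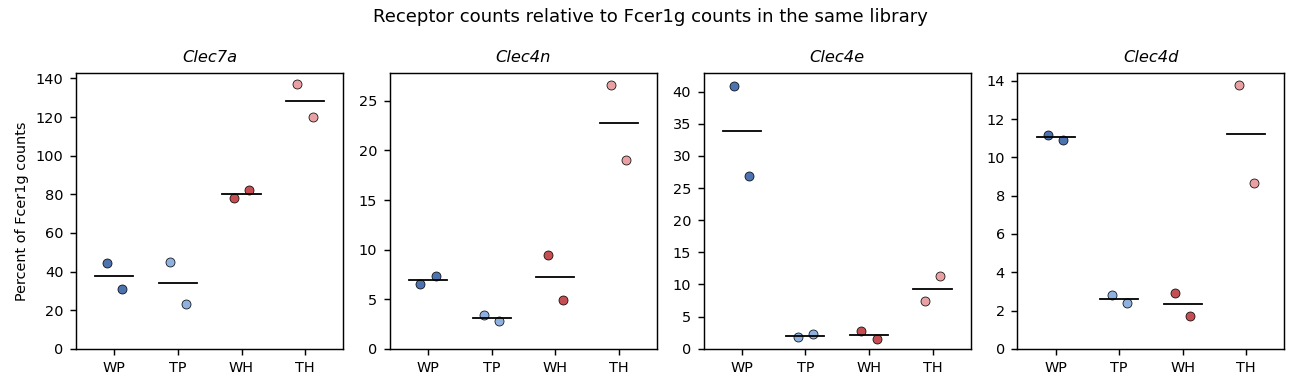
Counts of 4 receptors as a percentage of the Fcer1g counts in the same library; points are libraries and lines are group means. Clec4e is at 26.9% to 40.9% in WP and at or below 11.3% elsewhere, and Clec7a passes 100% in TH alone. Counts are not corrected for gene length, so that 100% does not mark equal RNA levels.

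Downstream of the receptors lay a list of 36 genes of the signalling pathway, from the adaptors to the NF-κB subunits. None passed between TP and WP by edgeR, where 0.657% of all genes did, and none by DESeq2. For a list of this size a count of 0 is near that share. An unadjusted p under 0.05 was found for 9 of the 36, against 9.98% of all genes. The list median was -0.47, against 0.001 over all genes, and 25 of 36 values were negative. Between TH and WH 1 of the 36 passed by edgeR, against 2.44% of all genes. It was the adaptor Tyrobp, which rose from 44.9 and 63.7 to 121 and 189 CPM (log2 fold change 1.55, SE 0.27, adjusted p = 0.0125). This call was lost without either WH library (1.30 and 1.83) and with the offset for gene length (0.82). In wild type mice 7 of 35 rose with HDM and 1 fell by edgeR, against 4.44% and 2.3% of all genes. The rises were led by the adaptor Lat2 (2.56), the kinase Btk (1.64), the phospholipase Plcg2 (1.37) and Syk (1.02, adjusted p = 0.0196). The inflammasome sensor Nlrp3 fell (-2.54). Btk, Plcg2 and Syk lost their call without WP replicate 1 (1.43, 1.21 and 0.86), Nlrp3 without WP replicate 2 (-1.28, against -3.20 without WP replicate 1), and Lat2 without WP replicate 1, WP replicate 2 or WH replicate 1 (2.45, 2.67 and 1.77). In transgenic mice 10 of 36 rose and none fell, against 8.43% and 5.35% of all genes. The rises were led by the inflammasome adaptor Pycard (2.89), Tyrobp (2.87), Lat2 (2.30, or 1.87 and not called with the length offset) and the phosphatase Ptpn6 (2.21). Of these, Tyrobp kept its call in each alternative, at 1.75 with the length offset, whereas Pycard lost its call without TP replicate 1 (2.53), Ptpn6 without either TP library (2.25 and 2.15) and Lat2 without either TP library or TH replicate 1 (3.36 and 1.69 without the TP libraries). Syk and Card9 were singled out after their values were seen. Syk rose by 1.25 in transgenic mice (adjusted p = 0.0278), a call lost without either TP library (0.93 and 1.65). Card9, the scaffold below Syk, had only 3 to 34 counts a library, did not pass in the 4 tests that included it and was filtered out between WH and WP. In the interaction 1 of 36 passed by edgeR, against 1.76% of all genes. This was Tyrobp, at 2.49 (SE 0.43, adjusted p = 0.00345), or at 1.75 with the length offset.

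Genes that such receptors are known to switch on were the next list. Of its 26 genes, 20 could be tested between TP and WP, and 5 were lower and none higher. Ccl3, a chemokine, fell from 30 and 42.7 to 0.299 and 0.528 CPM (log2 fold change -6.44, SE 0.53, adjusted p = 1.05e-06). Cxcl2, the neutrophil chemokine, fell from 24.9 and 24.1 to 0.0998 and 1.06 CPM (-5.41, adjusted p = 1.69e-04), or by 7.78 on the log2 scale without TP replicate 2 and by 4.52 without TP replicate 1. Ccl4 had 40 and 79 counts in WP and 0 in both TP libraries, at least 17-fold lower, and lost its call without WP replicate 2. Nos2, the inducible nitric oxide synthase, was lower by 3.78, a call lost without WP replicate 1 (-2.91), and was at -4.47 without TP replicate 2. Between TH and WH, 1 of 23 was lower, the chemokine Ccl22 (-1.82, adjusted p = 0.0182), and lost its call without either WH library (-1.92 and -1.72). With HDM in wild type mice 5 of 23 rose, led by Ccl17 (3.90), Ccl22 (2.91), Egr2 (2.59) and Irf4 (2.28). In transgenic mice 9 of 23 rose, led by Ccl4 (at least 34.4-fold), Il10 (at least 6.94-fold), Ccl3 (5.91, or 4.95 with the length offset) and Cxcl2 (4.64, or 7.02 without TP replicate 2 and 3.95 with the offset). Il10 lost its call without either TP library and without TH replicate 1 and with the length offset, and Cxcl2 without TP replicate 1 (3.76). The interaction was positive for 4 of 23, Ccl4 (with 0 counts in TP, so that no size is given), Ccl3 (6.71, or 6.06 with the length offset), Cxcl2 (5.78) and Il1b (2.65), as for the Fcer1g-coupled receptors, and negative for Ccl17 (-3.45, or -4.26 with the offset) and Ccl22 (-2.74). Cxcl2 lay between 4.91 and 8.17 without TP replicate 1 or 2, and Il1b and Ccl22 lost their calls without TP replicate 2 (2.40 and -2.51), Ccl22 also without WP replicate 2 (-2.42).

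No gene among the other C-type lectin and lectin-like receptors passed in a comparison of the genotypes. This list mixes receptors of myeloid cells with those of endothelial and natural killer cells. Of 22 tested between TP and WP, 23 between TH and WH and 25 in the interaction, none passed by edgeR or by DESeq2. By edgeR 0.657%, 2.44% and 1.76% of all genes passed, so that for lists of this size a count of 0 is near the share. An unadjusted p under 0.05 was found for 4, 2 and 2 genes of the list, against 9.98%, 16.2% and 14.7% of all genes. The list medians were -0.32, 0.05 and 0.13. With HDM in wild type mice 3 of 23 rose, the activation marker Cd69 (2.55), Clec4a3 (1.69) and the oxidized lipid receptor Olr1 (1.48), and 2 fell, the endothelial lectins Clec14a (-1.10) and Clec1a (-0.68). Cd69 was at 3.76 without WP replicate 1 and lost its call without WP replicate 2 (1.88), and Clec1a lost its call without either WP library or WH replicate 1 (-0.60). In transgenic mice 6 of 22 rose, among them Cd69 (2.56), the natural killer receptor Klrk1 (2.48, or 1.90 and not called with the length offset), Clec12a (2.25) and Olr1 (1.46), and 2 fell, Clec2d (-0.92, or -1.58 with the offset) and Clec14a (-0.72, or -0.62 and not called with the offset). These 6 calls were lost without either TP library, with the same signs, and those of Klrk1 and Clec2d also without TH replicate 1 (1.48 and -0.84) and that of Clec12a without TH replicate 2 (1.71).

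Proteins that bind mite components or airway lipids formed the last list. Between TP and WP, 1 of 14 passed, the collectin Sftpa1, higher by 0.42, which lost its call without either WP library (0.37 and 0.48). Between TH and WH the collectin Sftpd was higher by 0.82 and the chitinase Chia1 was lower (-1.62), and both lost their call without either WH library (0.76 and 0.87 for Sftpd, -1.81 and -1.40 for Chia1), Sftpd also with the length offset (0.45). HDM in wild type mice went with rises of Chia1 (3.58), the scavenger receptor Msr1 (2.68), the lectin Lgals3 (1.87) and the lipopolysaccharide co-receptor Ly96 (1.79), 6 of 14 in all. Msr1 was at 3.28 without WP replicate 1 and at 2.09 without WH replicate 1, and Ly96 lost its call without WP replicate 1 (1.25) and was at 2.70 without WP replicate 2. In transgenic mice 6 of 14 rose, led by Msr1 (3.65), Lgals3 (2.69), Cd14 (2.02) and Sftpd (1.68), and the fatty acid transporter Cd36 fell (-0.96). Cd14 lost its call without TP replicate 1 (1.78) and Cd36 without either TP library (-1.05 and -0.89), and Sftpd was at 1.06 with the length offset. The interaction passed for 1 of 14, Chia1, at -2.28 (SE 0.31, adjusted p = 3.62e-04), the opposite sign to that of Clec4e, Clec4d, Clec4n and Clec7a.

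**Figure D5:**
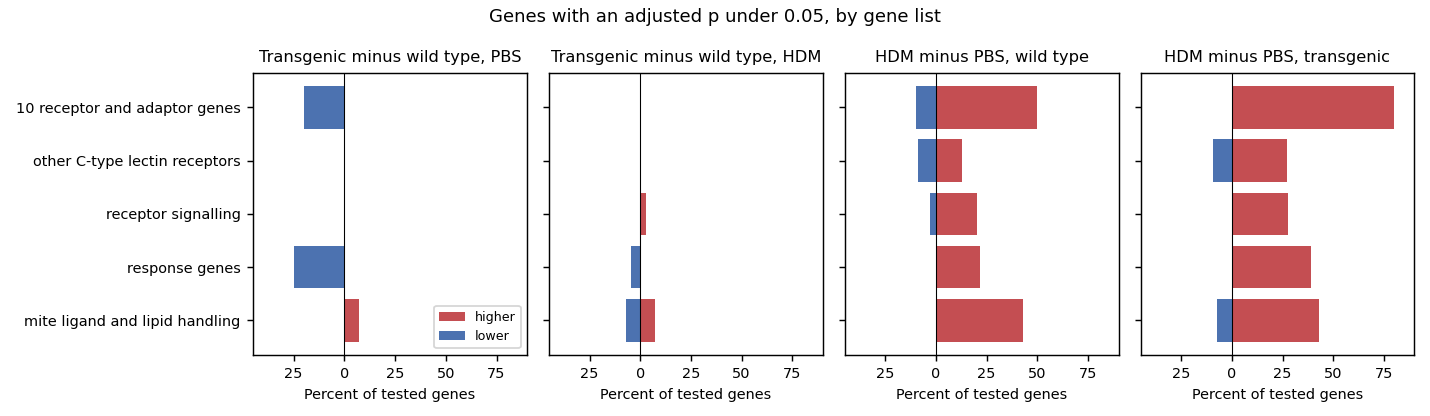
Share of the tested genes of each list with an adjusted p under 0.05, higher to the right in red and lower to the left in blue, in the 4 comparisons; the x axis is in percent. Of the 10 receptor and adaptor genes 2 were lower between the PBS-treated groups and 8 higher for HDM against PBS in transgenic mice. The other C-type lectin receptors show no bar in either genotype comparison, where 0.657% (PBS) and 2.44% (HDM) of all genes passed.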

How the data were processed

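Lung RNA of 8 libraries, 2 from each pool of 4 mice, was measured by RNA-seq. From 10 ng of total RNA, cDNA was amplified and sequenced, and reads of 50 cycles were mapped to mm10 with TopHat (version not given in the sources used here). The deposited values are raw counts of reads per gene. The authors describe them as summed over coding regions, although non-coding RNAs hold counts too. The submitters' processing notes also name bcl2fastq, CASAVA 1.8 and DESeq. Of 23469 Entrez identifiers, 23372 were named through RefSeq, and Rn45s took 8.58% to 21.8% of counts. Counts were tested with edgeR 4.0.16 (R 4.3.3) using TMM, filterByExpr with a count minimum of 10 and the quasi-likelihood test with Benjamini-Hochberg adjustment over all genes tested, at 0.05. Each comparison was fitted on its own 4 libraries and the interaction on all 8. Standard errors were derived from the F statistic. Alternatives were median-ratio size factors, DESeq2 1.42.0, no low-count filter, a replicate block, library sizes without Rn45s and haemoglobin, a gene length offset (loess, span 0.5, on transcript lengths of 21160 genes), the offset with the block, all 8 libraries in each fit, and each library left out.

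Floors of 3 counts cover counting error only, because reads without molecular identifiers are not independent molecules. The 10 genes and the gene lists were chosen with earlier results of these data known, and there was no test of any list. From each list the genes past 0.05 were named, up to 4 a direction by size of change in each comparison, with defining markers of cell types. The lists covered other C-type lectin receptors, receptor signalling, response genes, mite ligands and lipid handling, neutrophils, monocytes and macrophages, alveolar macrophages, dendritic cells, alternatively activated macrophages, eosinophils, all leukocytes, thymocytes, skeletal muscle, adipose tissue and lung. The test was checked on simulated counts.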

Additional observations from a re-analysis of the deposited data

Results flagged for a closer look

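For 4 of the 10 genes the genotype difference after HDM differed from that after PBS by a test of the difference itself, in edgeR's quasi-likelihood test on all 8 libraries. Of all 15868 genes tested 1.76% passed. The interaction was 6.63 on the log2 scale for Clec4e, 4.86 for Clec4d, 3.37 for Clec4n and 1.41 for Clec7a. Each of these genes was lower in both TP libraries than in both WP libraries and higher in both TH libraries than in both WH libraries. Over all genes, 20.4% were lower in TP without overlap and 23.2% were higher in TH without overlap. None of the 4 passed between TH and WH in edgeR's quasi-likelihood test on the HDM libraries alone, with adjusted p-values from 0.0773 to 0.308. With all 8 libraries in the fit Clec4d and Clec4e passed between TH and WH. Without the low-count filter Clec4d, Clec4e and Clec4n did, each higher in TH. With the offset for gene length Clec7a changed sign between TH and WH, and its interaction no longer passed.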

How the results depend on the processing

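The direction and call of Clec4e in the interaction and between TP and WP held under each alternative. Of the 10 genes, those called between TP and WP numbered 2 and became 4 without the low-count filter and 1 with the replicate block. Between TH and WH they numbered 0 and became 3 with DESeq2, 3 without the filter, 2 with the block, 1 with the length offset and block, and 2 with all 8 libraries. With each library left out the counts were 1 to 3 (TP vs WP), 0 to 2 (TH vs WH), 5 to 7 (WH vs WP), 4 to 8 (TH vs TP) and 3 to 4 (interaction). For libraries with the same replicate number, deviations from the group means correlated between -0.0214 and 0.0317 over the genes past the filter. Such a value over all these genes cannot exclude a batch that acts on some of them. With the replicate block Clec4d was no longer called between TP and WP (-2.95), Clec4d and Clec4n were called between TH and WH (2.01 and 1.44), and no other call of the 10 genes changed. Among other named genes Ccl4, Nos2 (-3.65) and Ptprc (-0.74) were not called between TP and WP with the block, nor were Nos2 (-3.58) and Ptprc (-0.70) with the offset and block. With the offset and block Fcer1g was called between TH and WH (-0.91), and was no longer called between TH and TP (0.46), nor was Clec7a in the interaction (0.76). Where 1 library was left out, the lone library of that group was assumed to vary like the other group. Over all genes, TP vs WP went from 98 to 222 with DESeq2, 306 without the filter, 45 with the block and 75 to 432 with a library left out. TH vs WH went from 370 to 909, 1055, 625 and 6 to 1595 in that order, to 165 with the length offset and to 771 with all 8 libraries. WH vs WP went from 1020 to 1588 without the filter and 652 to 1661 with a library left out, TH vs TP from 2079 to 277 to 2676, and the interaction from 279 to 688 with DESeq2, 675 without the filter and 138 to 721. The share of higher calls moved from 75.4% to 54.5% (TH vs WH), 61.2% to 50.4% (TH vs TP), 59.9% to 39.5% (interaction) and 42.9% to 53.8% (TP vs WP) with the length offset, and in TP vs WP to 53.3% with the block and 31.9% with all 8 libraries. These signs changed. For Clec10a the log2 value was -0.34 with the block, -0.25 with the offset and block and -2.07 to 0.99 with a library left out (TP vs WP), -0.15 with the block, -0.18 with the offset, -0.44 with both and -1.06 to 0.72 with a library left out (TH vs WH), and with a library left out -0.38 to 2.98 (TH vs TP) and -1.23 to 2.11 (interaction). Clec7a was at -0.21 with the offset and -0.22 with offset and block (TH vs WH), Mrc1 at 0.03 with the offset and -0.52 to 0.18 with a library left out, Clec4a2 at -0.17 to 0.51 likewise (both TH vs WH), Cd209a at -0.67 to 0.29 (TP vs WP) and -0.83 to 0.23 (WH vs WP) likewise, and Fcer1g at -0.17 and -0.15 (interaction, offset without and with the block). The cause was not tested. The 77 called differences of other named genes kept their direction in each of 959 alternative values and lost the call in 112. Depth limits Clec10a, Card9 and the TP values of Clec4e, Clec4d, Clec4n and Clec5a, which rest on 9 to 22 counts.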

Other observations

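Genes of alternatively activated macrophages, a state driven by type 2 cytokines, rose with HDM in wild type mice in 9 of 12 cases, and none fell. The list summed to 969 to 1010 CPM in WP and to 13455 to 14355 CPM in WH. Between TH and WH, 4 of 12 were lower and none was higher, with sums of 5590 to 7357 CPM in TH. Chil3 alone had a mean of 378 CPM in WP, 508 in TP, 9078 in WH and 3818 in TH. In transgenic mice 6 of 11 rose with HDM. None of 11 passed between TP and WP by edgeR, with 3 at an unadjusted p under 0.05 and 1 higher by DESeq2, and the interaction was negative for 5 of 12. The list holds Ccl17 and Ccl22, which are also among the response genes, and shares Chil3 with the alveolar macrophage list.

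Alveolar macrophage markers summed to 725 to 773 CPM in WP, 929 to 941 in TP, 9484 to 9818 in WH and 3881 to 4910 in TH, and the sums of the HDM groups were mostly Chil3. In wild type mice 2 of 12 rose with HDM and none fell, with a list median of 0.28 and 5 values negative. In transgenic mice 3 of 12 rose and 1, Cidec, fell, and between TH and WH Fabp4 was higher and Chil3 lower. Dendritic cell markers summed to 2079 to 2468 CPM in WP, 1911 to 2491 in TP, 5506 to 5631 in WH and 2719 to 3365 in TH, of which Cd74 made up 1699, 1690, 4501 and 2097 CPM on average. With HDM 5 of 13 rose in wild type mice and none fell, 5 rose and 1, Xcr1, fell in transgenic mice, and Cd74 was lower in TH than in WH. Eosinophil markers summed to 23.9 to 26.9 CPM in WP, 15.8 to 23.5 in TP, 76.4 to 90.7 in WH and 46.6 to 51.8 in TH, with Epx at 0 in all groups but TH. Of those tested 2 of 7 rose in wild type and 2 of 5 in transgenic mice, and 1 of 7, Rnase2a, was lower in TH than in WH. Between TP and WP, 7 of 8 muscle genes were higher, 4 of 8 thymocyte genes were lower, and 1 of 5 tested adipose genes was lower. Adipose genes summed to 85.4 to 95.4 CPM in WP and to 27.7 to 93.5 CPM in the other groups. Of the 11 lung markers 2 were higher in TP than in WP and none passed between TH and WH by edgeR, with 6 at an unadjusted p under 0.05. With HDM 1 lung marker was higher and 3 were lower in wild type mice, and 4 were lower in transgenic mice.

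As a description over the 8 libraries, which share pools and depth, the 3 genes whose log2 CPM followed that of a receptor most closely among 10027 genes were listed. For Clec4e they were Senp3, S100a9 and Arsk, with Pearson's r of 0.965, 0.956 and 0.938. For Clec4n they were Tlr1, Sirpb1c and Sirpb1b, with 0.975, 0.975 and 0.974, and for Mrc1 they were Evl, Anxa4 and C3ar1, with 0.966, 0.964 and 0.955.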
